A study of Glycine max with 2 samples.

Results

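Abscisic acid transcripts were taken as the table entries whose description names abscisic acid, protein phosphatase 2C, the PYL receptors, carotenoid-cleaving dioxygenases of hormone synthesis, SNF1-related or SRK2 kinases, dehydrins, late embryogenesis proteins or ABA-responsive proteins, with bZIP factors left out. The rule found 26 transcripts of 22 genes among 2471 listed at 95 days, and 19 transcripts of 19 genes among 2413 listed at 50 days. Over both ages these were 35 different transcripts of 30 genes, of 4096 transcripts in the series. The set covers the hormone's pathway only in part. Of the members, 23 at 95 days and 17 at 50 days were protein phosphatases 2C, and the remainder were 3 enzymes that break abscisic acid down at 95 days, and 1 enzyme named for conjugating it and 1 kinase of its signalling path at 50 days. No entry at either age matched the words for the receptors, for the dioxygenases, for dehydrins, for late embryogenesis proteins or for ABA-responsive proteins, and the tables list only transcripts that passed a p-value limit, so their absence here says nothing of their level.

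RNA from leaves of greenhouse soybean (Glycine max) was sequenced at 95 and at 50 days after sowing, to find genes that differ between a type that senesces early and one that senesces late. The groups are type B and type A at 95 days and type B and type A at 50 days, named after the 2 value columns of the authors' table for each age. No label says which type is the early one, or that a letter stands for the same type at both ages, and no variety, genotype or treatment beyond normal growth is given. Each group is 1 library, and the number of plants in it is not stated, so nothing below rests on replicates, and a p-value of the authors sets one library against another rather than one type against another.

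Abscisic acid is a plant hormone made from carotenoids that closes stomata, restrains growth under drought and promotes the ageing of leaves. It binds receptors of the PYR/PYL family, which then block the clade A protein phosphatases 2C. These phosphatases otherwise keep SnRK2 protein kinases inactive, and the freed kinases phosphorylate bZIP factors that switch on response genes such as those of dehydrins and other late embryogenesis proteins. The hormone is removed by CYP707A hydroxylases, or stored as an inactive glucose ester. Protein phosphatases 2C (PP2C) are a large plant family, and its other clades serve other pathways, among them the control of MAP kinases and of plasma membrane proton pumps.

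Values are normalised reads, the deposited value less the 1 that the authors' values contain. A transcript is a single isoform of a gene model, and isoforms that the tables do not list are missing from every sum. Where the lower of the libraries was at 0 reads, a bound on the fold was computed against 3 reads in it and is written as at least that fold. The bound takes the reads of the higher library as counted, so it can lie above an exact lower limit. Otherwise the fold carries a 95% exact (Clopper-Pearson) interval, and neither covers more than counting error. Called transcripts are those with an adjusted p of the authors under 0.05 and a log2 ratio of 1 or more in size. Every listed ratio was large, the smallest absolute log2 ratio in the authors' deposited tables being 3.57 at 95 days and 3.58 at 50 days. Since each table holds part of a library, total depth is unknown. Of the marker lists, photosynthesis had 1 listed transcript at 95 days and 3 at 50 days, all with more reads in A. Guard cells had 1 at each age (in A), vascular tissue 1 at each age (in B), and seed storage none. Nodule and root had 1 at 95 days (in A) and 3 at 50 days (2 in B and 1 in A).

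Among the 26 members at 95 days, B was the higher library for 17 and A for 9. The share in B was 65.4%, against 53.3% of all listed transcripts at that age. None of the 26 was called, where 1.50% of listed transcripts were called and 0.728% were called and higher in B. An unadjusted p under 0.05 was the condition for being listed and held for all 26, and no other test was run. At 50 days B was the higher library for 9 of the 19 members and A for 10, a share in B of 47.4% against 39.2% of all listed transcripts. There 1 member was called, higher in B, where 4.64% of listed transcripts were called and 1.45% were called and higher in B. From the authors' deposited table, the median of the log2 ratios (B over A) was 5.25 for the members and 4.52 for all listed transcripts at 95 days, and -4.16 for the members and -5.29 for all listed transcripts at 50 days. No listed ratio is near 0, so these medians mainly follow which side holds more transcripts. Among transcripts higher in B the medians were 7.13 (members) and 7.62 (all listed) at 95 days, and 7.27 and 7.52 at 50 days. Among those higher in A they were -7.97 and -7.83 at 95 days, and -6.82 and -7.41 at 50 days. In 20 of the 26 members at 95 days and 14 of the 19 at 50 days the other library had no read, a trait of 75.3% and 70.5% of all listed transcripts.

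**Figure D1:**
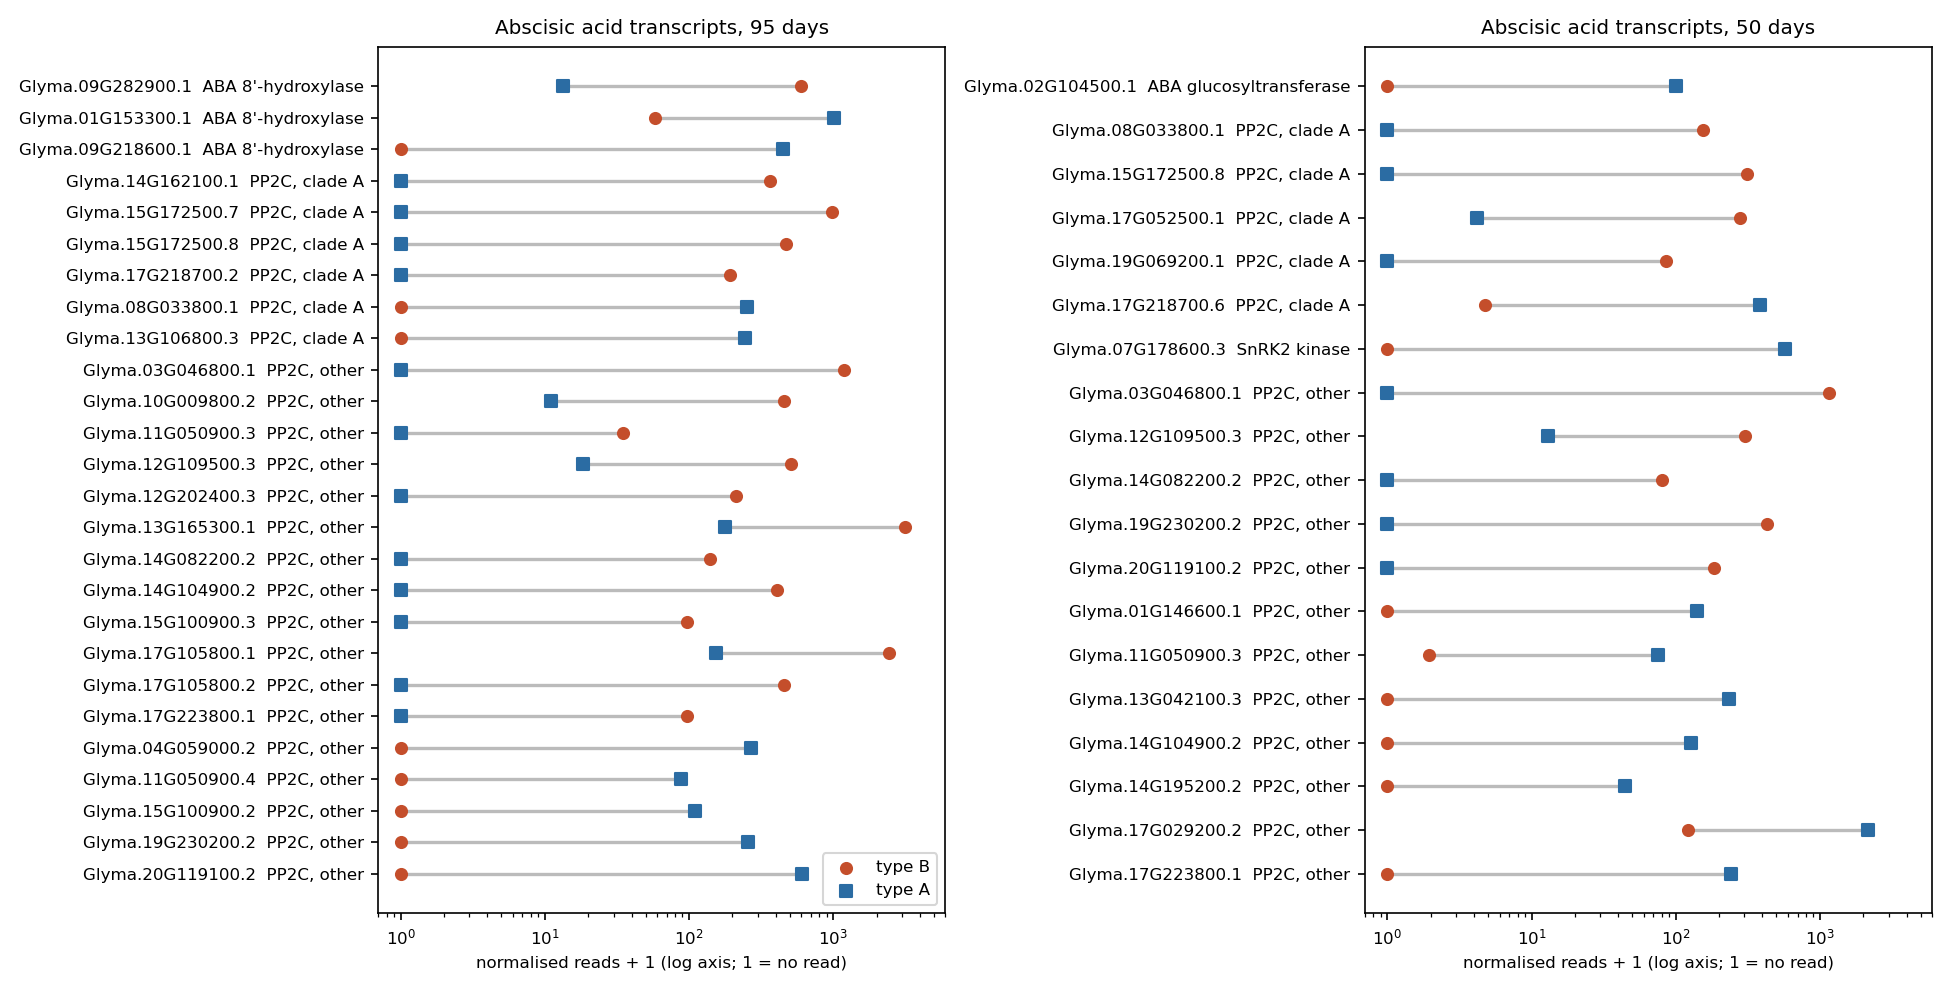
Normalised reads plus 1 (log axis) of each abscisic acid transcript in type B (circles) and type A (squares) at 95 days (left) and 50 days (right), 1 library per point, joined by a grey line. Points at 1 are libraries with no read, as in 20 of 26 transcripts at 95 days and 14 of 19 at 50 days, and 17 and 9 transcripts have the circle on the right.

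**Figure D2:**
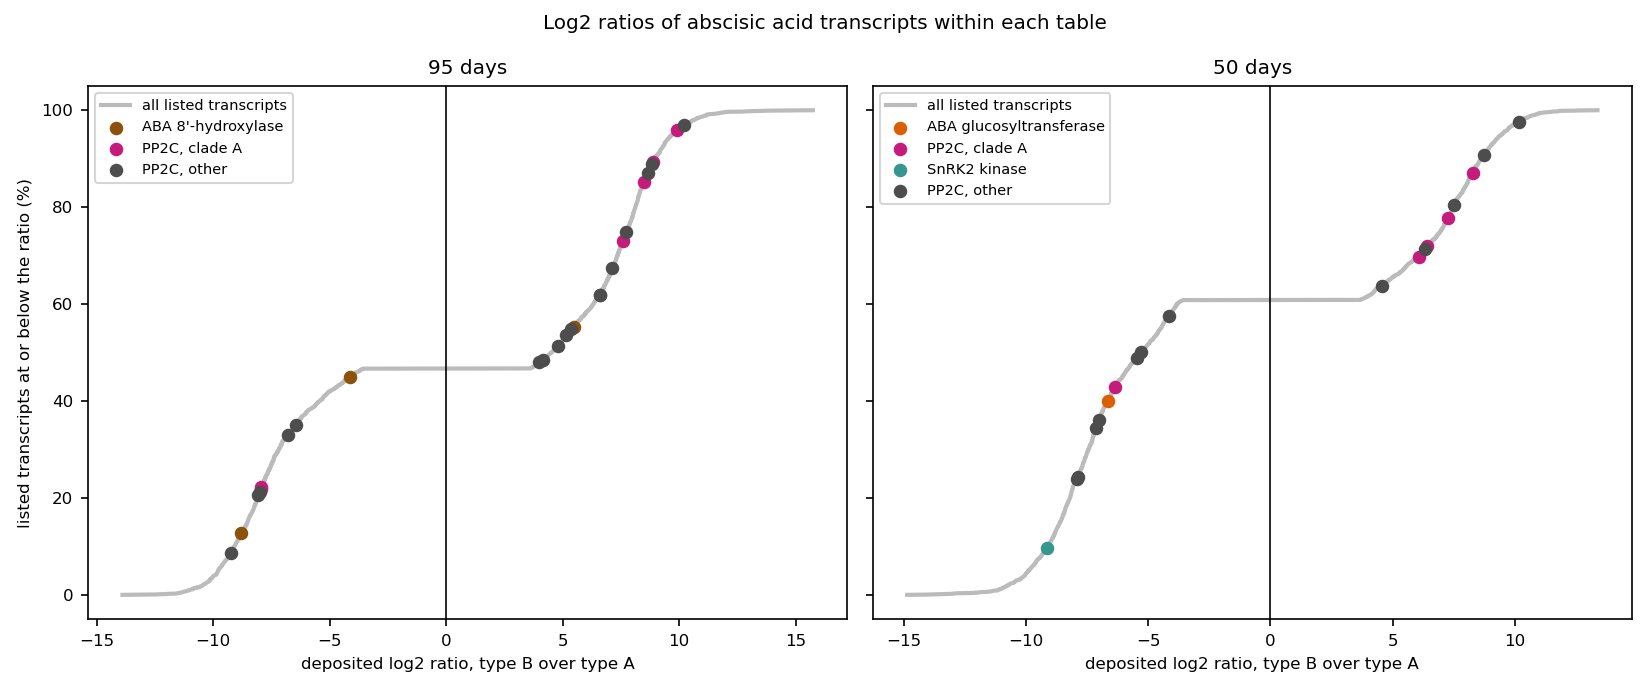
Cumulative share (percent) of all listed transcripts against their deposited log2 ratio of type B over type A at 95 days (left) and 50 days (right), with the abscisic acid transcripts as points coloured by role. The members lie along the whole curve on both sides of 0, and no listed transcript has an absolute ratio under 3.57.

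The 3 enzymes of hormone breakdown, all described as abscisic acid 8'-hydroxylases, were listed at 95 days only. These cytochrome P450 enzymes of the CYP707A family start the main route by which plants inactivate the hormone. Glyma.01G153300.1, matched to Arabidopsis CYP707A1, had 56.9 normalised reads in B against 1018 in A, 17.9-fold lower in B (13.5 to 24.2). A further transcript with the same match, Glyma.09G218600.1, had 0 reads in B against 448 in A, at least 137-fold lower in B. Glyma.09G282900.1, matched to CYP707A2, stood on the other side, with 600 normalised reads in B against 12.5 in A, 48.1-fold higher in B (26.0 to 101). The CYP707A1-like transcripts were thus both low in B, and the CYP707A2-like one was low in A. Their adjusted p-values in the authors' deposited table, 0.997, 0.179 and 0.622 in that order, were all above the threshold.

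Conjugation was represented by 1 transcript at 50 days. Glyma.02G104500.1 is described as an abscisate beta-glucosyltransferase, an enzyme that in adzuki bean joins glucose to the hormone, and it had 0 reads in B against 99.5 normalised reads in A, at least 35.3-fold lower in B. Its match in the Arabidopsis column, AT2G15490, is a member of the UGT73B group of glucosyltransferases, so the table's 2 annotations do not name the same enzyme. Its adjusted p in the authors' deposited table was 1.

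The clade A phosphatases, the ones that the hormone receptors block, were picked out by their Arabidopsis match to ABI1, HAB1, HAB2, HAI2 or HAI3. The names used below follow that match alone. The descriptions divide the genes otherwise, since ABI1-like Glyma.13G106800.3 and HAB1-like Glyma.17G218700.2 are both described as protein phosphatase 2C 77-like. At 95 days 6 transcripts of 5 genes were listed, 4 with more reads in B and 2 in A, none called. At 50 days there were 5, 4 with more reads in B and 1 in A, none called. Among all listed transcripts, B was higher for 53.3% at 95 days and 39.2% at 50 days, and 1.50% and 4.64% were called. The lowest adjusted p of the clade A transcripts in the authors' deposited table was 0.318 at 95 days and 0.575 at 50 days.

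At 95 days, ABI1-like Glyma.15G172500.7 and Glyma.15G172500.8, isoforms of a single gene, had 974 and 467 normalised reads in B and no read in A. They were at least 261-fold and 125-fold higher in B. HAI3-like Glyma.14G162100.1 had 363 in B against 0 in A, at least 97.2-fold higher. HAB1-like Glyma.17G218700.2 also had reads in B alone, 190 against none. On the other side, ABI1-like Glyma.08G033800.1 and Glyma.13G106800.3 had 0 in B against 250 and 244 normalised reads in A, at least 76.3-fold and 74.4-fold lower in B. By Arabidopsis match, ABI1-like genes were therefore found on both sides at 95 days, 1 in B against 2 in A. In each of the 6 clade A transcripts the other library had no read, a trait of 75.3% of all listed transcripts at that age.

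At 50 days, Glyma.15G172500.8 again had reads in B alone, 312 against none in A, at least 129-fold higher. HAB2-like Glyma.17G052500.1 had 280 normalised reads in B against 3.21 in A, where 4 reads were counted, 87.2-fold higher in B (33.7 to 322). HAI2-like Glyma.19G069200.1 had 84.5 in B against 0 in A. ABI1-like Glyma.08G033800.1, which had reads only in A at 95 days, had 153 in B against 0 in A at 50 days, at least 63.6-fold higher in B. The exception was HAB1-like Glyma.17G218700.6, with 3.76 in B against 384 in A, 102-fold lower in B (39.7 to 377). For the HAB1-like gene, the isoform listed at 50 days was thus low in B, and a different isoform listed at 95 days was absent from A.

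Among the members, the kinase step was represented by Glyma.07G178600.3 at 50 days only, described as SRK2E-like. In Arabidopsis SRK2E, also called OST1, is the SnRK2 kinase that acts in guard cells to close stomata. It had 0 reads in B against 569 normalised reads in A, at least 202-fold lower in B, with an adjusted p of 0.153 in the authors' deposited table. The guard cell marker listed at that age, the potassium channel KAT1-like Glyma.15G094600.1, was also at 0 in B, with 95.5 normalised reads in A. At 95 days this marker had 0 in B against 39.9 in A. It was the only guard cell marker listed besides SRK2E itself, and its part in the result was not tested. In bulk leaf RNA, fewer cells of a type and less RNA per cell cannot be told apart.

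Of the other phosphatases, 17 transcripts of 14 genes were listed at 95 days, 12 with more reads in B and 5 in A, and 12 transcripts of 12 genes at 50 days, of which B was higher for 5 and A for 7. B was higher for 53.3% of all listed transcripts at 95 days and 39.2% at 50 days. The called transcript belonged to these other phosphatases, where 4.64% of all listed transcripts were called at 50 days. Glyma.03G046800.1, described as protein phosphatase 2C 74 and matched to AT5G01700, had 1159 normalised reads in B against 0 in A at 50 days, at least 481-fold higher, with an adjusted p of 0.0396 in the authors' deposited table. It had 1185 in B against 0 in A at 95 days, at least 317-fold higher, where the adjusted p in the authors' deposited table was 0.0629. Reads of this isoform were thus found in B alone at both ages, and its call at 95 days missed the threshold. No role for this phosphatase is given in the tables.

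The transcripts matched to DBP1 (AT2G25620), a DNA-binding protein phosphatase of Arabidopsis, were all on the B side at 95 days. Glyma.13G165300.1 had 3163 normalised reads in B against 178 in A, 17.8-fold higher in B (15.0 to 21.2). Glyma.17G105800.1 had 2446 in B against 153 in A, 15.97-fold higher in B (13.3 to 19.3). The remaining isoform, Glyma.17G105800.2, had 458 in B against 0 in A. The first isoforms named were among the 6 members at 95 days with reads in both libraries, and the intervals of their folds overlap. Both ratios fall below 0 if centred on the median of all listed transcripts. That median follows the side with more transcripts, so centring does not decide their side. None of the 3 was called, with adjusted p-values of 0.962, 1 and 0.863 in the authors' deposited table.

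Also on the B side at 95 days was Glyma.10G009800.2 (match AT3G62260), with 452 normalised reads in B against 9.96 in A, 45.3-fold higher in B (22.8 to 106). Both genes matched to AT4G03415 lay there too. Glyma.12G109500.3 had 511 in B against 17.4 in A, 29.3-fold higher in B (17.3 to 54.0), and Glyma.12G202400.3 had 212 in B against 0 in A. Those with more reads in A at 95 days had none in B, the highest being Glyma.20G119100.2 with 607 in A and the lowest Glyma.11G050900.4 with 87.2. Of all listed transcripts at 95 days, 75.3% had a library at 0 reads. Transcripts matched to WIN2 (AT4G31750), a phosphatase bound by a bacterial effector in Arabidopsis, were divided, since Glyma.14G104900.2 had 409 in B against 0 in A, and Glyma.04G059000.2 had 0 in B against 268 in A.

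Among the members with reads in both libraries at 50 days was Glyma.17G029200.2 (match AT5G27930). It had 120.2 normalised reads in B against 2165 in A, 18.0-fold lower in B (15.1 to 21.7). Its ratio lies above 0 if centred on the median of all listed transcripts. That median follows the side with more transcripts, so centring does not decide its side. Glyma.14G195200.2, matched to AP2C1, which inactivates stress-related MAP kinases in Arabidopsis, had 0 in B against 43.3 in A. Glyma.13G042100.3 (match AT5G53140) had 0 in B against 235 in A. Glyma.01G146600.1, a protein that joins a phosphatase to a kinase domain, had 0 in B against 139.7 in A, at least 49.6-fold lower in B. Of the 7 transcripts of this group with more reads in A, 5 had no read in B. Of all listed transcripts at 50 days, 70.5% had a library at 0 reads.

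At 95 days 4 genes had more than 1 listed member isoform, and in 2 of them the isoforms lay in opposite libraries. How often this held for all genes with several listed isoforms was not counted, so 2 of 4 cannot be called unusual. Glyma.15G100900.3 had 96.3 normalised reads in B against 0 in A, whereas Glyma.15G100900.2 had 0 in B against 109.6 in A. Glyma.11G050900.3 had 33.9 in B against 0 in A, and Glyma.11G050900.4 had 0 in B against 87.2 in A. Each isoform was listed because it differed, and unlisted isoforms are missing, so no level of the whole gene is given. Soybean also carries many genes as close duplicates. How reads were divided among isoforms and duplicates is not stated in the labels or headers, and its part in these differences was not tested.

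Of the 35 members, 10 were listed at both ages, all of them phosphatases, from 10 of the 11 genes listed at both. In 4 of the 10 the same library was higher at both ages, in each case B, and in 6 the libraries were opposite. Of all 788 transcripts listed at both ages, 32.0% lay in opposite libraries; 219 of the 536 on the same side were in B, and of the 252 opposite ones 177 were in B at 95 days and 75 in A. Those in B at both ages were Glyma.03G046800.1, Glyma.15G172500.8, Glyma.12G109500.3 and Glyma.14G082200.2. The last had 139 normalised reads in B against 0 in A at 95 days, and 78.9 in B against 0 in A at 50 days. Glyma.12G109500.3 had 303 in B against 12.04 in A at 50 days, 25.2-fold higher in B (15.0 to 45.5), against 29.3-fold at 95 days. Dividing each column by its median over all transcripts listed at both ages makes the fold 22.7 at 95 days and 891 at 50 days. Those medians, 4.69 in B and 166 in A at 50 days, come from transcripts listed because they differ. They need not follow library depth, so this scaling cannot decide whether the folds are alike.

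Of the 6 others, 3 were in B at 95 days and 3 in A. Glyma.20G119100.2 (match AT1G68410) had 0 in B against 607 normalised reads in A at 95 days, but 183 in B against 0 in A at 50 days. Glyma.19G230200.2 (match AT1G09160) had 0 in B against 255 in A at 95 days, but 429 in B against 0 in A at 50 days. ABI1-like Glyma.08G033800.1 was the third of that kind. In the other direction, WIN2-like Glyma.14G104900.2 had 409 in B against 0 in A at 95 days, and 0 in B against 126.8 in A at 50 days. Glyma.17G223800.1 (match AT4G31860) had 95.2 in B against 0 in A at 95 days, and 0 in B against 239.99 in A at 50 days. Glyma.11G050900.3 had 33.9 in B against 0 in A at 95 days, and 0.939 in B, a single read, and 74.6 in A at 50 days, 79.5-fold lower in B (13.9 to 3173). Centred on the median of all listed transcripts, the ratio of Glyma.11G050900.3 at 50 days lies above 0, as at 95 days. By that measure 5 rather than 6 would be opposite. No listed ratio is near 0, so that median follows the side with more transcripts and cannot decide a side. Reads of these 6 isoforms were present in 1 library of each pair and absent, or at 1 read, in the other. Whether the letters stand for the same type at both ages is not stated, so the levels are given side by side only.

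**Figure D3:**
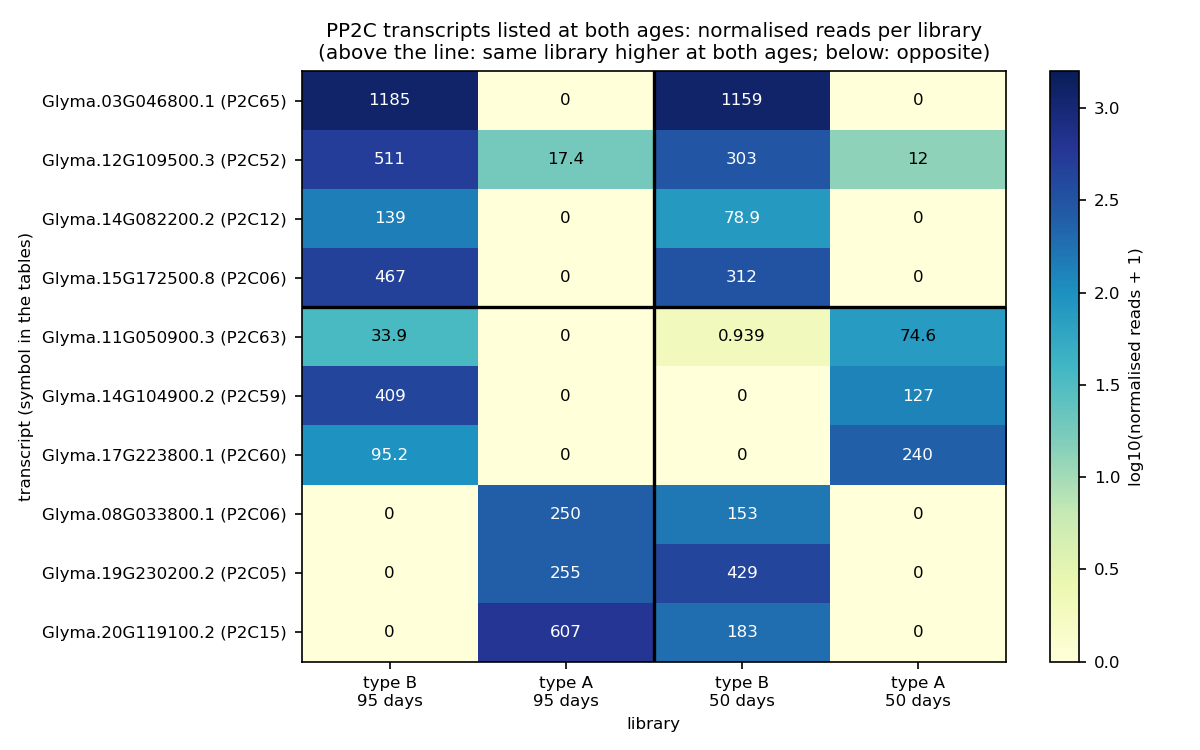
Normalised reads (numbers in the cells; colour on a log10 scale of reads plus 1) of the 10 phosphatase transcripts listed at both ages in type B and type A at 95 days and in type B and type A at 50 days, 1 library per column. The 4 transcripts above the horizontal line have more reads in B at both ages, and the 6 below it have more in B at 1 age and in A at the other.

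Genes next to the pathway were counted from a list of names, among them RD22, ERD15, LEA, ABF and KEG. Of 7 such transcripts at 95 days B was higher for 3 and A for 4, none called. Of 10 at 50 days B was higher for 2 and A for 8, 1 called. Among all listed transcripts, B was higher for 53.3% at 95 days and 39.2% at 50 days, and 1.50% and 4.64% were called. The called one was Glyma.02G277300.2, matched to a LEA14 protein of cotton although the table describes it as uncharacterized, with 2765 normalised reads in B against 0 in A at 50 days, at least 1148-fold higher, and an adjusted p of 0.0196 in the authors' deposited table. Late embryogenesis proteins protect cells against water loss. The 2 other such transcripts at 50 days, Glyma.11G013200.2 (LEA65) and Glyma.18G238700.2 (Lea14 of soybean), had 0 in B against 383 and 41.7 in A. The LEA transcripts were thus found on both sides at 50 days, and none of the name was listed at 95 days.

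RD22 encodes a BURP-domain protein induced by drought and abscisic acid in Arabidopsis. RD22-like Glyma.04G180400.1 had 5.47 normalised reads in B against 99044 in A at 95 days, 18107-fold lower in B (7759 to 55767), and 7.51 in B against 73517 in A at 50 days, 9787-fold lower (4967 to 22669). Its adjusted p in the authors' deposited table was 0.296 at 95 days and 0.36 at 50 days, so it was not called. Glyma.06G081100.1, a further RD22-like gene, had 2975 in B against 112.1 in A at 95 days, but 19.7 in B against 782 in A at 50 days. Glyma.14G140900.1 had 12465 in B against 559 in A at 50 days, 22.3-fold higher in B (20.7 to 24.1). The 3 RD22-like genes therefore did not share a side, and only the first was nearly absent from B at both ages.

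ERD15 is a small protein induced early in dehydration. Glyma.03G131900.3 of that name had 737 normalised reads in B against 0 in A at 95 days, and 0 in B against 426 in A at 50 days. Of the bZIP factors, which bind the promoters of response genes, ABI5-like Glyma.06G314400.2 had 120.3 in B against 0 in A at 95 days, and TRAB1-like Glyma.07G213100.3 had 0 in B against 212 in A. Sugar transporters named for ERD6 made up the remaining neighbours at 95 days and 2 of those at 50 days, all with more reads in A. The last one at 50 days, Glyma.17G211700.1, carries the symbol KEG, a ubiquitin ligase that removes ABI5 in Arabidopsis, while its Arabidopsis match names another gene, and it had 138 in B against 1745 in A.

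**Figure D4:**
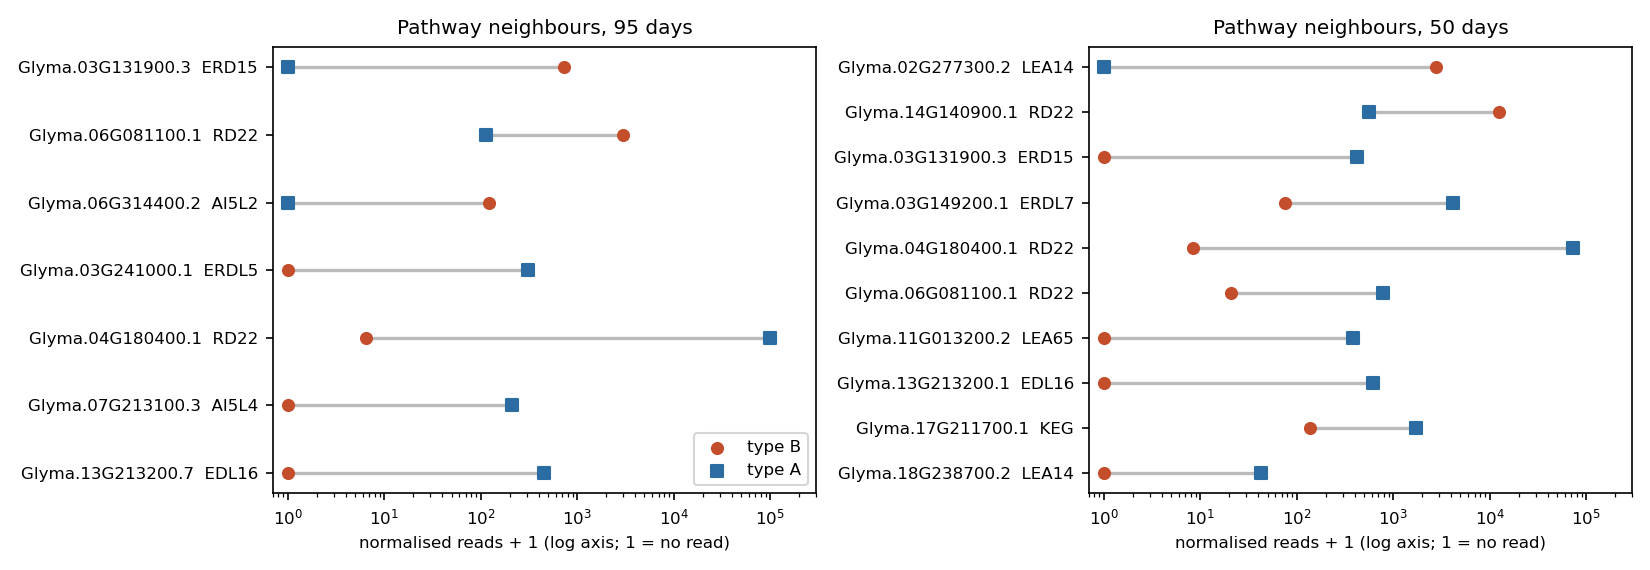
Normalised reads plus 1 (log axis) of the neighbours of the pathway in type B (circles) and type A (squares) at 95 days (left, 7 transcripts) and 50 days (right, 10 transcripts), 1 library per point. RD22-like Glyma.04G180400.1 spans the widest range at both ages, with 5.47 in B and 99044 in A at 95 days.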

How the data were processed

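Leaf RNA libraries were made by standard Illumina methods and run on a NovaSeq, per the labels' protocols. The submitters' processing notes name Trimmomatic 0.36, a read trimmer, and DESeq 1.36.0, which compares counts, but no label or header states the aligner, the counter, the genome build or the annotation. The deposited A and B values are a signal never under 1, and each value less 1 was a whole multiple of its column's step (within 0.01, for 100% of values), so they were taken as counts over a size factor plus 1. The size factors were 0.914 for B and 0.803 for A at 95 days, and 1.06 for B and 1.25 for A at 50 days. The deposited log2 ratio is that of B over A. The deposited p-value and adjusted p-value of the authors were used as given; no p above 0.04998 is listed, so depth is unknown.

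Members were found by words in the description, 1 repeated row at 50 days being counted once, and bZIP factors were left out. Members and lists were chosen with earlier results of these data known. Named by rule are called members, all members of role groups of at most 6, the 4 phosphatases with the largest ratio on each side and the 2 with the most reads, members listed at both ages, isoforms on opposite sides and called neighbours. Named after their values were seen are the remaining clade A phosphatases, Glyma.10G009800.2, Glyma.12G202400.3, Glyma.14G195200.2 and the other neighbours. Arabidopsis gene names were given to the matched identifiers from general knowledge. No soybean reference with Glyma identifiers was at hand, so no coordinates or sequences are given. Steps and intervals were tested on simulated data with smaller folds than those listed here. Intervals were scored only where both simulated libraries had reads. Intervals that rest on a few reads, and bounds against a library with no read, were thus not covered. Python 3.11.15 ran scipy 1.17.1, numpy 2.4.6, matplotlib 3.10.9 and pandas 2.3.3.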

Additional observations from a re-analysis of the deposited data

Results flagged for a closer look

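For 6 of the 10 phosphatase transcripts listed at both ages, the deposited log2 ratio of B over A had opposite signs at 95 and at 50 days. Of these 6, 5 were outside clade A. The same held for 252 of all 788 transcripts listed at both ages, or 32.0%. There was 1 library per type and age, and the difference between ages was not tested. The ratio at 95 days less that at 50 days was -15.24 for ABI1-like Glyma.08G033800.1, -16.75 for Glyma.19G230200.2 and -16.77 for Glyma.20G119100.2. It was 10.41 for Glyma.11G050900.3, 15.68 for WIN2-like Glyma.14G104900.2 and 14.50 for Glyma.17G223800.1. These sizes rest on the 1 that the authors' values contain, since a library was at 0 reads at 1 or both ages: for Glyma.08G033800.1 the difference is -12.24 with 0 reads set to 3 reads and -8.47 with a pseudocount of 10. Centred on the median of all listed transcripts, Glyma.11G050900.3 has a ratio above 0 at both ages, 0.60 at 95 days and 0.0045 at 50 days, and is then not opposite. That median follows the side with more listed transcripts, so centring cannot decide the side.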

How the results depend on the processing

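No paired analysis was possible because each age has 1 library per type, and for the same reason no replicate could be left out. At 95 days the count of called members was 0, and 1 at an adjusted p under 0.1, that being Glyma.03G046800.1. At 50 days it was 1, and 0 at an adjusted p under 0.01 or 2 with members also taken by symbol or Arabidopsis match, which adds LEA14-like Glyma.02G277300.2. At the main setting 1.50% of all listed transcripts were called at 95 days and 4.64% at 50 days. Their shares at the other settings were not counted. Members with more reads in B at 95 days numbered 17 of 26, 11 of 14 at levels at or above the table's median, 5 of 6 with reads in both libraries and 5 of 9 without phosphatases outside clade A. At 50 days they numbered 9 of 19, and 2 of 5, 2 of 5 and 4 of 7 under the same settings. With no filter, B was higher for 53.3% of all listed transcripts at 95 days and 39.2% at 50 days. The shares of all listed transcripts under each setting were not counted. These small counts therefore cannot tell a lean of the members from one of the whole table. The median log2 ratio at 50 days, -4.16, became 1.13 when centred on the median of the table, -2.30 with a pseudocount of 10, and -3.94 with 0 reads set to 3 reads, a setting added after seeing the data. At 95 days the median lay between 0.72, when centred, and 5.53. Centring turned the sign of 2 of 26 transcripts at 95 days, Glyma.13G165300.1 and Glyma.17G105800.1, and of 2 of 19 at 50 days, Glyma.17G029200.2 and Glyma.11G050900.3. No listed ratio is near 0, so the centre follows the side with more transcripts, and a turned sign does not show more reads in the other library. Over all transcripts listed at both ages the column medians were 82.0 in B and 63.5 in A at 95 days, and 4.69 in B and 166 in A at 50 days. Scaling to them put Glyma.03G046800.1 at 19523 in B at 50 days, and made the 79.5-fold difference of Glyma.11G050900.3 at 50 days 2.25-fold, still lower in B. These medians come from transcripts listed because they differ and need not follow library depth. The size factors at 50 days were 1.06 for B and 1.25 for A. Most members listed at both ages have no read in one library, where no scaling can turn the side. Depth limits every fold against 0 reads to a lower bound.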

Other observations

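The catalytic subunit of SnRK1, an energy-sensing kinase related to the SnRK2 kinases of abscisic acid signalling, did not match the words used and was singled out after its values were seen. Its KIN10-like isoform Glyma.13G060400.3 had 2052 normalised reads in B against 0 in A at 95 days, and 0 in B against 1474 in A at 50 days. At 95 days another isoform of that gene, Glyma.13G060400.1, had 167 in B against 2261 in A, 13.5-fold lower in B (11.4 to 16.0). Their adjusted p-values in the authors' deposited table were 0.112 and 1 at 95 days, and 0.1002 for the first at 50 days. Transcripts that carry a phosphatase symbol or match under another description added further values at 95 days. Glyma.02G144500.3 had 710 in B against 0 in A, and Glyma.02G162300.4, which joins a kinase and a PP2C-like domain, had 0 in B against 356 in A. Glyma.17G148800.2, named for the rice SnRK2 kinase SAPK3, had 0 in B against 64.8 in A. Its Arabidopsis match, AT4G33950, is also that of SRK2E-like Glyma.07G178600.3. WIN2-like Glyma.06G059700.2 had none in B at either age, with 34.9 in A at 95 days and 82.7 in A at 50 days.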
